A study of Mus musculus with 4 samples.

Results

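The monocyte lineage genes described here are F13a1, Ccr2, Ms4a6c, Ms4a4c, Ly86, Ly6c2, Lyz2, Cx3cr1 and Fcgr3, chosen by name as genes known from monocytes and their progenitors. All 9 were found by symbol among the 55357 genes of the deposited feature table, and the rule that names them uses no measured value. They were measured by single-cell RNA-seq in 4 libraries of LSK cells sorted from the bone marrow of wild-type (WT) mice. LSK cells are marrow cells without mature lineage markers that carry the surface proteins Sca-1 and Kit, and they hold the blood stem cells and early multipotent progenitors. Libraries Yoda1 1 and Yoda1 2 came from mice given Yoda1, an agonist of the mechanosensitive ion channel Piezo1, into the peritoneum for 2 weeks, and libraries Control 1 and Control 2 came from mice given vehicle. Age, sex and the number of mice behind a library are not in the labels, nor is it stated that each library had its own mice, so every p-value reflects library-to-library spread that may be technical. Transcripts of both defining surface genes were present in all libraries. Kit was at 105 and 156 CPM (UMIs per 1000000 counted UMIs) in Yoda1 1 and Yoda1 2, against 98.4 and 129.7 CPM in Control 1 and Control 2. Ly6a, which encodes Sca-1, was at 262 and 114 CPM in Yoda1 1 and Yoda1 2, against 113 and 97.9 CPM in Control 1 and Control 2.

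Monocytes arise in the marrow from myeloid progenitors that pass from the stem and multipotent compartment through granulocyte-monocyte and monocyte-dendritic stages under the transcription factors PU.1 (Spi1), Irf8 and Klf4. Most leave the marrow as classical monocytes, which carry much Ly6C and need the chemokine receptor Ccr2 to exit, and some become patrolling monocytes, which carry much Cx3cr1. Several of the genes are not particular to monocytes: lysozyme and Ly6C are also made in other myeloid cells, and the Fc receptor encoded by Fcgr3 is also found on granulocytes, mast cells and natural killer cells. In LSK cells, which come before mature monocytes, transcripts of these genes can accompany early myeloid priming but are not limited to it.

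By role, Ccr2 and Cx3cr1 are chemokine receptors, of Ccl2 and of fractalkine. Fcgr3 is a low-affinity receptor for IgG. Ly6c2 encodes a Ly6C antigen held to the membrane by a lipid anchor, and Ms4a6c and Ms4a4c encode multi-pass membrane proteins of the Ms4a family. F13a1 encodes the A subunit of coagulation factor XIII, a transglutaminase that crosslinks fibrin. Lyz2 encodes lysozyme, which cleaves bacterial cell walls, and Ly86 encodes MD-1, the secreted partner of the receptor RP105. In GENCODE M21 (GRCm38) all of them are protein-coding genes. F13a1 (minus strand) lay at chr13:36867178-37050244 and Ly86 (plus strand) at chr13:37345208-37419036, with 294964 bases between their start sites. Ms4a4c lay at chr19:11404770-11427246 and Ms4a6c at chr19:11469366-11482192, both on the plus strand, with 42120 bases between them. The other 5 genes lie apart from one another or on other chromosomes, Ccr2 at chr9:124101950-124113557, Cx3cr1 at chr9:119901616-120069879, Ly6c2 at chr15:75108158-75111970, Lyz2 at chr10:117277331-117282321 and Fcgr3 at chr1:171051174-171064935.

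The promoter windows below, 250 bases before to 50 bases after a start site, are from RefSeq (GRCm38.p6), read 5′ to 3′ on the gene's strand. They are shown for F13a1 and Ly6c2, whose levels moved most closely together across cell classes, for the neighbours Ms4a6c and Ms4a4c, and for Fcgr3, which had the most different distribution. Capitals mark matches on either strand to GAGGAAG, a core of the PU.1 motif, or to GGAAGT, a core shared by the ETS family. The motifs overlap where GAGGAAG is followed by T, and the reverse strand reads CTTCCTC or ACTTCC.
F13a1 (chr13:37050195-37050494, minus strand): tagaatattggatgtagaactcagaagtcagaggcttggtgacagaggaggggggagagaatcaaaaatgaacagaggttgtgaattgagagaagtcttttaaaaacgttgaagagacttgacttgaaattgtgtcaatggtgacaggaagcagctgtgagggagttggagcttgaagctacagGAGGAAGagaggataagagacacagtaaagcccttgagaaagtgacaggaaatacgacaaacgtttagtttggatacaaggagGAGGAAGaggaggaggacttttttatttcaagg
Ly6c2 (chr15:75111922-75112221, minus strand): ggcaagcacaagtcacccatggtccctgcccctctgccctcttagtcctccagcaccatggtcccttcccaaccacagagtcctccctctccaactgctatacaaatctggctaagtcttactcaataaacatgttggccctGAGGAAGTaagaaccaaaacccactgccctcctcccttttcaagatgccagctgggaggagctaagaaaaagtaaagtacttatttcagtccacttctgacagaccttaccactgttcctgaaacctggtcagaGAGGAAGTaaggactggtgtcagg
Ms4a6c (chr19:11469118-11469417, plus strand): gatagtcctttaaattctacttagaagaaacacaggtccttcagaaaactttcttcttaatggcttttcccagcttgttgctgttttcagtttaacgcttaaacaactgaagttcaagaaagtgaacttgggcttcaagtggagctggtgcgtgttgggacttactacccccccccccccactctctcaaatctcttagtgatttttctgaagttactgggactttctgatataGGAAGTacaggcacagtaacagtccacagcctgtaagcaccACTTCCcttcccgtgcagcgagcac
Ms4a4c (chr19:11407411-11407710, plus strand): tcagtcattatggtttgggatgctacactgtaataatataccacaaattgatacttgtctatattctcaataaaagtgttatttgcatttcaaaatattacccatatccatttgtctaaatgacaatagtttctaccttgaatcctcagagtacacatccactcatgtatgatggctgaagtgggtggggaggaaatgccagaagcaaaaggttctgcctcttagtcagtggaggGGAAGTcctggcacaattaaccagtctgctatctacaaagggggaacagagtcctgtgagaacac
Fcgr3 (chr1:171059354-171059653, minus strand): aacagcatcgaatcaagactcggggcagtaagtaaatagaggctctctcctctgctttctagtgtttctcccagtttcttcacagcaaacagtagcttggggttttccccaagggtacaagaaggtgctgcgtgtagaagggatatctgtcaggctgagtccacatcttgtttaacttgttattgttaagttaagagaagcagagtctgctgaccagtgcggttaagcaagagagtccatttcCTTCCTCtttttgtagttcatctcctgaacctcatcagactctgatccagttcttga
Of the 9 genes, 3 had GAGGAAG in a listed window (F13a1, Ly6c2 and Fcgr3) against 13.6% of 32851 windows in the table, and 5 had GGAAGT, against 23.8% of windows. Either motif was found for 6 genes, against 32.0% of windows, and F13a1, Ly6c2 and Fcgr3 each had 2 listed windows, so a gene had more chances than a window. Counting the start site base as 0, GGAAGT began at -16 in Ms4a6c and at -15 in Ms4a4c. Ms4a6c also had a reverse-strand match to GGAAGT that began at 25. In F13a1 GAGGAAG began at -66 and 17, in Ly6c2 at -108 and 26, and in Fcgr3 a reverse-strand match began at -7. A match describes letters in a window and does not show binding.

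The libraries held 9122 and 9756 cells for Yoda1 1 and Yoda1 2, and 7620 and 7822 cells for Control 1 and Control 2, after barcodes under 500 genes, under 1000 UMIs or over 10% mitochondrial UMIs were left out. Their totals were 89058521 to 110493533 UMIs, with medians of 7311 to 11220 UMIs per cell, the lowest in Yoda1 2. Yoda1 2 stood apart in its mix of cells: of cells thinned to 3000 UMIs each, 0.698% were in the monocyte-primed gate described below, against 4.74% in Yoda1 1, 4.14% in Control 1 and 3.61% in Control 2. In the stem gate, 9.76% of the cells of Yoda1 2 were found, against 2.77% in Yoda1 1, 1.54% in Control 1 and 2.32% in Control 2. Between 8 and 26 cell barcodes were shared by any pair of libraries. For these reasons each treatment result is given for every library and with libraries left out.

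Over all kept cells the Yoda1 libraries did not move together. Most of the genes were highest in Yoda1 1 and lowest in Yoda1 2, with the controls between them. Ms4a4c was at 35.7 and 2.55 CPM in Yoda1 1 and Yoda1 2, against 13.3 and 10.7 CPM in Control 1 and Control 2. Ms4a6c was at 309 and 53.6 CPM in Yoda1 1 and Yoda1 2, against 186 and 188 CPM in Control 1 and Control 2. In both Ms4a genes the controls were close together and the Yoda1 libraries lay on either side of them, 13.98 times apart for Ms4a4c and 5.75 times apart for Ms4a6c.

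**Figure D1:**
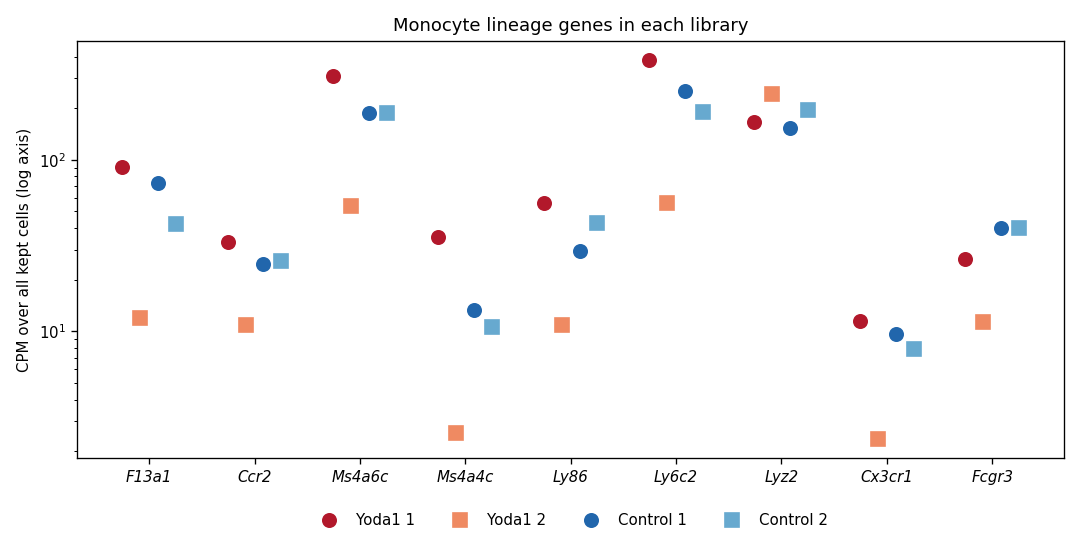
Level of each gene in CPM over all kept cells (log axis), with 1 point per library and the Yoda1 libraries left of the controls. For 7 of 9 genes Yoda1 1 is above both controls, for 8 of 9 Yoda1 2 is below both, and Lyz2 is highest in Yoda1 2.

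The secreted factor genes and Ly6c2 showed the same arrangement, apart from Lyz2. F13a1 was at 90.6 and 11.9 CPM in Yoda1 1 and Yoda1 2, against 73.1 and 42.4 CPM in Control 1 and Control 2. Ly6c2 was at 384 and 55.7 CPM in Yoda1 1 and Yoda1 2, against 253 and 189.9 CPM in Control 1 and Control 2. Ly86 was at 55.7 and 10.9 CPM in Yoda1 1 and Yoda1 2, against 29.5 and 43.0 CPM in Control 1 and Control 2. For these genes too, Yoda1 1 was above both controls and Yoda1 2 below both. Lyz2 ran the other way, at 166 and 242 CPM in Yoda1 1 and Yoda1 2, against 153 and 194 CPM in Control 1 and Control 2, so that Yoda1 2 was the highest library.

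Among the receptors, Ccr2 was at 33.1 and 10.8 CPM in Yoda1 1 and Yoda1 2, against 24.8 and 25.6 CPM in Control 1 and Control 2. Cx3cr1, the least covered of the genes with 213 to 1269 UMIs per library, was at 11.5 and 2.35 CPM in Yoda1 1 and Yoda1 2, against 9.70 and 7.86 CPM in Control 1 and Control 2. Both chemokine receptors had Yoda1 1 above and Yoda1 2 below the controls. Fcgr3 was at 26.6 and 11.4 CPM in Yoda1 1 and Yoda1 2, against 40.03 and 40.15 CPM in Control 1 and Control 2. It was the only member of the 9 in which both Yoda1 libraries lay on 1 side of both controls, which 9.95% of all genes tested did in that direction and 9.4% in the other. Yoda1 1 was above both controls in 7 of 9 genes (18% of all genes tested), and Yoda1 2 was below both in 8 of 9 (23.2% of all genes tested). Both held together in 7 of 9, all but Lyz2 and Fcgr3, against 5.71% of all genes tested.

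In edgeR's quasi-likelihood test over all kept cells, none of the 9 genes was called at a Benjamini-Hochberg adjusted p of 0.05, and 0 of 18182 genes tested were (0%). At an unadjusted p of 0.05, 309 of the genes tested passed (1.7%), and DESeq2 called 5, all lower with Yoda1. The log2 fold changes, Yoda1 over control, ran from -1.08 ± 0.42 (SE) for Fcgr3 to 0.72 ± 0.99 for Ms4a4c. Fcgr3 alone of the 9 passed the unadjusted threshold, with an edgeR adjusted p of 0.9999. For each of the other 8 genes the standard error exceeded the size of the estimate: F13a1 was at -0.14 ± 0.83, Ccr2 at -0.18 ± 0.51 and Ly6c2 at 0.02 ± 0.79. The 9 genes had a median log2 fold change of -0.08, against 0.01 over all genes tested.

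For every gene but Lyz2 and Fcgr3, the direction depended on which Yoda1 library was used. Leaving out a control also turned some estimates, each to within 1 SE of 0. F13a1 was at 0.37 ± 0.73 and Ms4a6c at 0.04 ± 0.68 without Control 1. Ly86 was at 0.15 ± 0.58 and Ly6c2 at -0.22 ± 0.69 without Control 2. Without Yoda1 1, 8 of 9 genes, all but Lyz2, were called lower with Yoda1 by edgeR, in a fit that called 2.34% of 18903 genes lower, and none was called higher, where 2.62% of genes were. The log2 fold changes of those 8 genes then ran from -2.46 ± 0.29 for F13a1 to -1.38 ± 0.25 for Ccr2. Without Yoda1 2, Ms4a4c (1.64 ± 0.22), Ly6c2 (0.85 ± 0.22) and Ms4a6c (0.79 ± 0.22) were called higher, where 0.669% of 18829 genes were, and none was called lower. With 1 Yoda1 library left, that library is assumed to vary like the controls, so these calls compare a library with the controls and not the treatment. Without Control 1 or without Control 2, none of the 9 genes was called.

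**Figure D2:**
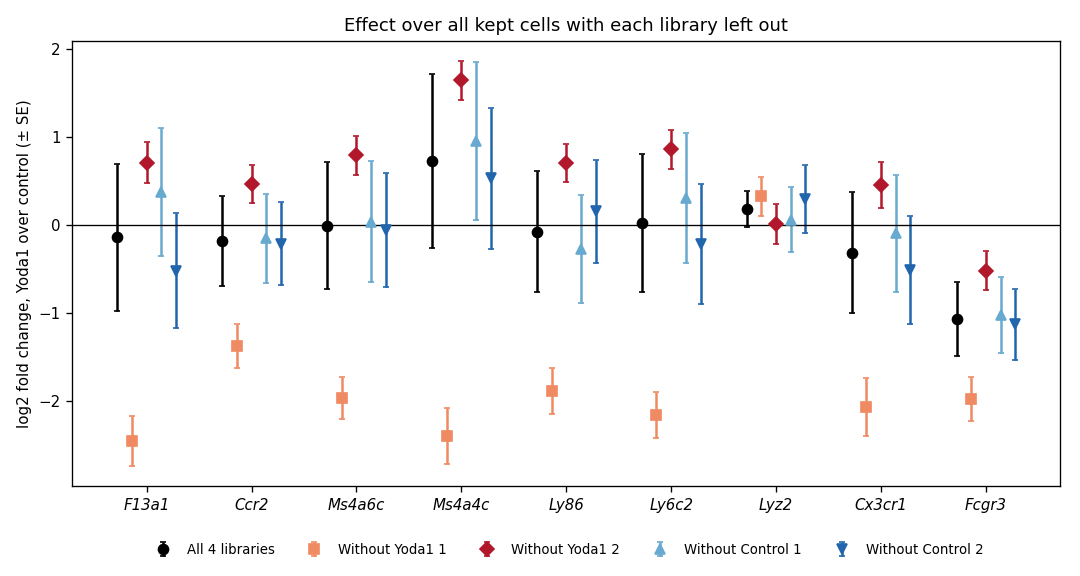
Log2 fold change of each gene, Yoda1 over control, in edgeR over all kept cells, with bars of 1 SE, for all 4 libraries and with each library left out. Without Yoda1 1 every gene but Lyz2 is at -1.38 or lower, while without Yoda1 2 every gene but Fcgr3 is at or above 0.

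The interferon-induced genes Ifit3 and Iigp1 were highest in Yoda1 1. Ly6a, looked at beside them, was also highest in Yoda1 1, at 262 CPM. Ifit3 was at 30.0 and 4.69 CPM in Yoda1 1 and Yoda1 2, against 3.49 and 4.53 CPM in Control 1 and Control 2, and Iigp1 was at 81.3 and 23.4 CPM in Yoda1 1 and Yoda1 2, against 20.2 and 20.7 CPM in Control 1 and Control 2. These genes were picked with earlier results of these data known, and their part in the levels of the monocyte lineage genes was not tested. Markers of other cells the sort could hold were also present. The 7 late neutrophil genes summed to 57.3 and 69.3 CPM in Yoda1 1 and Yoda1 2, against 213 and 111 CPM in Control 1 and Control 2. The 5 eosinophil genes summed to 51.2 and 9.13 CPM in Yoda1 1 and Yoda1 2, against 90.8 and 115 CPM in Control 1 and Control 2. The 7 macrophage genes summed to 19.0 and 28.8 CPM in Yoda1 1 and Yoda1 2, against 34.0 and 29.1 CPM in Control 1 and Control 2. None of these genes was at 0 in any library. All 3 sums were lower in both Yoda1 libraries than in both controls, but the macrophage sums of Yoda1 2 and Control 2 were nearly equal. Fcgr3 was also lower in both, as were 9.95% of all genes tested. The part of these cells in the level of Fcgr3 was not tested.

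The share of cells with a transcript followed the levels. Each cell was thinned at random to 3000 UMIs so that depth was equal, which left out 154 and 446 shallower cells in Yoda1 1 and Yoda1 2, and 226 and 252 in Control 1 and Control 2. A UMI of Ms4a6c was found in 44.9% (95% exact binomial interval 43.9 to 46.0) and 11.7% (11.1 to 12.4) of cells in Yoda1 1 and Yoda1 2, against 32.4% (31.3 to 33.4) and 31.1% (30.1 to 32.2) in Control 1 and Control 2. Ly6c2 was found in 25.0% and 3.38% of cells in Yoda1 1 and Yoda1 2, against 23.5% and 14.2% in Control 1 and Control 2. F13a1 was found in 9.83% and 1.12% of cells in Yoda1 1 and Yoda1 2, against 9.17% and 5.09% in Control 1 and Control 2. For each of these genes the lowest share was in Yoda1 2 and its interval did not meet that of any other library. The intervals cover counting error only.

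Ly86 was found in 9.66% and 1.78% of cells in Yoda1 1 and Yoda1 2, against 6.44% and 7.82% in Control 1 and Control 2, and Ms4a4c in 8.55% and 0.666%, against 3.30% and 2.63%. Ccr2 was found in 6.08% and 1.79% of cells in Yoda1 1 and Yoda1 2, against 4.72% and 4.31% in Control 1 and Control 2, and Cx3cr1 in 2.16% and 0.526%, against 2.20% and 1.76%. Yoda1 1 was above both controls for the first 3 of these genes and between them for Cx3cr1, and Yoda1 2 was below both for all 4. Fcgr3 was found in 5.30% and 1.83% of cells in Yoda1 1 and Yoda1 2, against 8.34% and 7.74% in Control 1 and Control 2, so that both Yoda1 libraries were below both controls. The difference of means was -4.48 percentage points (exact two-sided permutation test, p = 0.3333, the smallest value that 2 libraries against 2 can give).

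Lyz2 was the most widely detected, in 38.9% and 50.1% of cells in Yoda1 1 and Yoda1 2, against 35.0% and 40.9% in Control 1 and Control 2. Without thinning its share was 72.3% and 78.2% in Yoda1 1 and Yoda1 2, against 67.8% and 71.7% in Control 1 and Control 2. As a rough measure of free RNA, cells of the megakaryocyte-erythroid gate are given beside it. Transcripts that these cells make themselves cannot be told from free RNA in that gate. There a UMI of F13a1 was in 0 to 1.81% of cells across the libraries, Ccr2 in 0 to 1.44%, Ms4a4c in 0 to 0.722%, Ly86 in 0 to 0.842%, Fcgr3 in 0.267 to 1.38%, Ms4a6c in 0.990 to 7.70% and Ly6c2 in 0 to 7.70%. These cells had median depths of 14535.5 to 17148.5 UMIs, above the library medians, before thinning. Lyz2, at 14.6 to 25.2% in that gate, and Cx3cr1, at 0.800 to 1.98%, were closest to their shares over all cells.

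Cell classes were set from marker genes that exclude the 9 described here. The monocyte-primed gate took cells with at least 3 UMIs, after thinning, from Irf8, Csf1r, Klf4, Mpeg1 and Ctss, and 6 other gates took cells by markers of neutrophil-primed, stem, megakaryocyte-erythroid, lymphoid-primed, dendritic, and mast and basophil cells. It held 425 and 65 cells in Yoda1 1 and Yoda1 2, against 306 and 273 in Control 1 and Control 2. Before cells that met several gates were assigned to 1 of them, 633 and 209 cells met its threshold in Yoda1 1 and Yoda1 2, against 520 and 474 in Control 1 and Control 2. Cells near the gate's threshold were counted over all thinned cells, without the need for 2 of its markers. Here 358 and 106 had exactly 3 marker UMIs in Yoda1 1 and Yoda1 2, against 278 and 217 in Control 1 and Control 2. A further 685 and 325 cells lay 1 UMI below it in Yoda1 1 and Yoda1 2, against 515 and 480 in Control 1 and Control 2. Its cells had a median of 9 and 2 UMIs of the neutrophil-primed genes (Elane, Prtn3, Ctsg, Cebpe and Gfi1) in Yoda1 1 and Yoda1 2, against 9 and 5 in Control 1 and Control 2. Some cells that met its threshold also met the lymphoid-primed gate. They numbered 58 and 54 in Yoda1 1 and Yoda1 2, against 50 and 105 in Control 1 and Control 2. The monocyte-primed gate's own genes had a median of 4 to 5 UMIs in each library. This gate is thus a range of cells that carry monocyte markers rather than a separate type. The difference in its share of cells between group means was -1.15 percentage points (exact two-sided permutation test, p = 1, n = 2 libraries per group), and without Yoda1 2 it was 0.867 points.

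Across the gates, 5 of the 9 genes had their highest mean in monocyte-primed cells: F13a1, Ms4a6c, Ms4a4c, Ly86 and Cx3cr1. F13a1 averaged 304 ± 77.3 CPM in the monocyte-primed gate (SD, n = 4 libraries), 152 ± 49.3 CPM in the neutrophil-primed gate and 4.21 to 16.3 CPM in the other 5 gates, whose ranges overlapped. Ms4a6c averaged 605 ± 98.1 CPM in the monocyte-primed gate, 311 ± 115 in the neutrophil-primed gate, 114 to 227 in the dendritic, mast and basophil, lymphoid-primed and stem gates, and 20.6 ± 12.9 in the megakaryocyte-erythroid gate. Ly86 averaged 201 ± 34.8 CPM in the monocyte-primed gate, 106 ± 29.6 in the dendritic gate, 61.2 ± 24.5 in the neutrophil-primed gate and 44.7 ± 21.7 in the lymphoid-primed gate, with 2.90 to 5.54 in the other 3. Of these, the dendritic and neutrophil-primed means of Ly86, and the neutrophil-primed and lymphoid-primed means, each differed by less than the sum of their SDs.

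**Figure D3:**
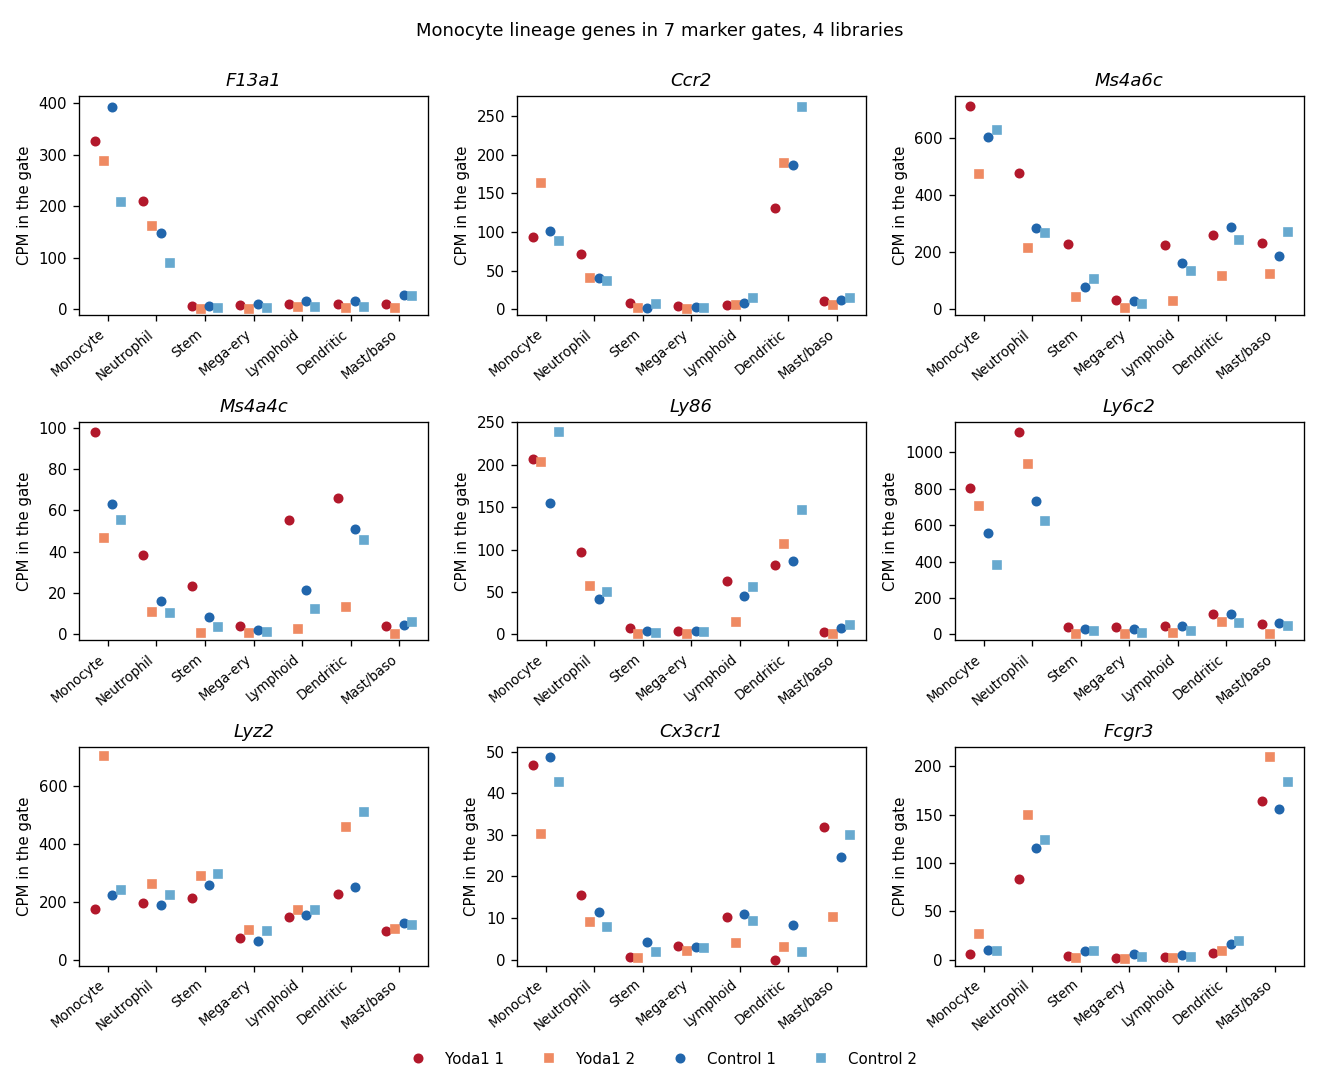
Level of each gene in CPM within each of 7 marker gates, with 1 point per library, the Yoda1 libraries left of the controls, on a linear axis from 0. F13a1, Ms4a6c, Ly86 and Cx3cr1 are highest in the monocyte-primed gate, Ly6c2 in the neutrophil-primed gate, Ccr2 in the dendritic gate and Fcgr3 in the mast and basophil gate.

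Ms4a4c averaged 65.8 ± 22.5 CPM in the monocyte-primed gate and 43.8 ± 22.1 CPM in the dendritic gate, within 1 SD of each other, with 22.9 ± 23.1 in the lymphoid-primed gate and 19.0 ± 13.3 in the neutrophil-primed gate. Cx3cr1 averaged 42.1 ± 8.29 CPM in the monocyte-primed gate and 24.2 ± 9.80 CPM in the mast and basophil gate, and 10.9 ± 3.44 CPM or less in the others. Ccr2 was highest in the dendritic gate: it averaged 112 ± 35.0 CPM in the monocyte-primed gate, against 192 ± 53.8 CPM in the dendritic gate and 47.1 ± 16.3 CPM in the neutrophil-primed gate. Ly6c2 averaged 612 ± 184 CPM in the monocyte-primed gate, against 852 ± 217 CPM in the neutrophil-primed gate, and 88.4 ± 26.3 CPM or less in the other 5. Cells with dendritic markers often also met the monocyte threshold, 22 and 80 of 75 and 163 cells in Yoda1 1 and Yoda1 2, against 74 and 86 of 109 and 145 in Control 1 and Control 2.

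Fcgr3 had a different distribution. It averaged 12.9 ± 9.02 CPM in the monocyte-primed gate, against 178 ± 24.1 CPM in the mast and basophil gate, 118 ± 27.5 CPM in the neutrophil-primed gate and 12.7 ± 5.62 CPM in the dendritic gate. A UMI was found in 1.41 to 3.59% of monocyte-primed cells, against 37.8 to 52.6% of mast and basophil cells and 22.1 to 33.2% of neutrophil-primed cells. Of all Fcgr3 UMIs of a library, monocyte-primed cells held 1.32% on average and neutrophil-primed cells 73.1%. Lyz2 was broad: it averaged 335 ± 246 CPM in the monocyte-primed gate, 360 ± 142 in the dendritic gate, 263 ± 37.3 in the stem gate and 217 ± 33.0 in the neutrophil-primed gate, and these 4 overlapped. The wide spread in the monocyte-primed gate came with Yoda1 2, at 702 CPM there, against 175 CPM in Yoda1 1, 221 CPM in Control 1 and 240.1 CPM in Control 2. After thinning, a UMI of Lyz2 was found in 37.6 to 41.5% of monocyte-primed cells and 46.8 to 61.4% of stem gate cells.

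In the edgeR test between gates of the same libraries, all 9 genes were called higher in the monocyte-primed gate than in the stem gate (26.5% of genes tested were), the megakaryocyte-erythroid gate (27.9%) and the lymphoid-primed gate (22.5%). Against the megakaryocyte-erythroid gate the log2 fold changes ran from 1.62 ± 0.33 for Fcgr3 to 5.91 ± 0.16 for Ly86. Against the stem gate Lyz2 was called at 0.42 ± 0.15, although it was higher in the monocyte-primed gate in 1 of 4 libraries, without Yoda1 2 it was 0.05 and not called, and DESeq2 did not call it (0.40 ± 0.37, adjusted p = 0.395). Fcgr3 against the stem gate was also not called without Yoda1 2 (0.61, against 1.72 ± 0.44 with all libraries). Against the lymphoid-primed gate F13a1 differed most (5.61 ± 0.17) and Lyz2 least (0.95 ± 0.19).

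Against the neutrophil-primed gate, 6 of 9 genes were called higher in the monocyte-primed gate (19.8% of 11908 genes tested were) and 2 lower (20.5%). Cx3cr1 (1.88 ± 0.12), Ms4a4c (1.73 ± 0.13) and Ly86 (1.64 ± 0.12) differed most, followed by Ccr2 (0.996 ± 0.14), F13a1 (0.93 ± 0.09) and Ms4a6c (0.89 ± 0.08), each higher in 4 of 4 libraries. Ly6c2 (-0.60 ± 0.06) and Fcgr3 (-3.63 ± 0.12) were lower in 4 of 4 libraries, and Lyz2 (0.25 ± 0.14) was not called. Lyz2 was called higher without Yoda1 1 (0.43, edgeR adjusted p = 0.0135) and with no filter on low counts (0.19, edgeR adjusted p = 0.00729). Against the dendritic gate, 6 of 9 were called higher (11.7% of genes tested) and Ccr2 lower (-0.82 ± 0.18, with 14.5% of genes tested lower). Without Control 2, Ccr2 was at -0.51 and not called, and Ms4a4c (0.59 ± 0.19 with all libraries) was not called without Yoda1 1 (0.53) or without Yoda1 2 (0.40). Lyz2 and Fcgr3 were not called against the dendritic gate, although without Yoda1 2 Lyz2 was called lower (-0.52, edgeR adjusted p = 0.0275). Against the mast and basophil gate, 8 of 9 were called higher (18.9% of genes tested) and Fcgr3 lower (-4.13 ± 0.14, with 18.5% of genes tested lower).

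**Figure D4:**
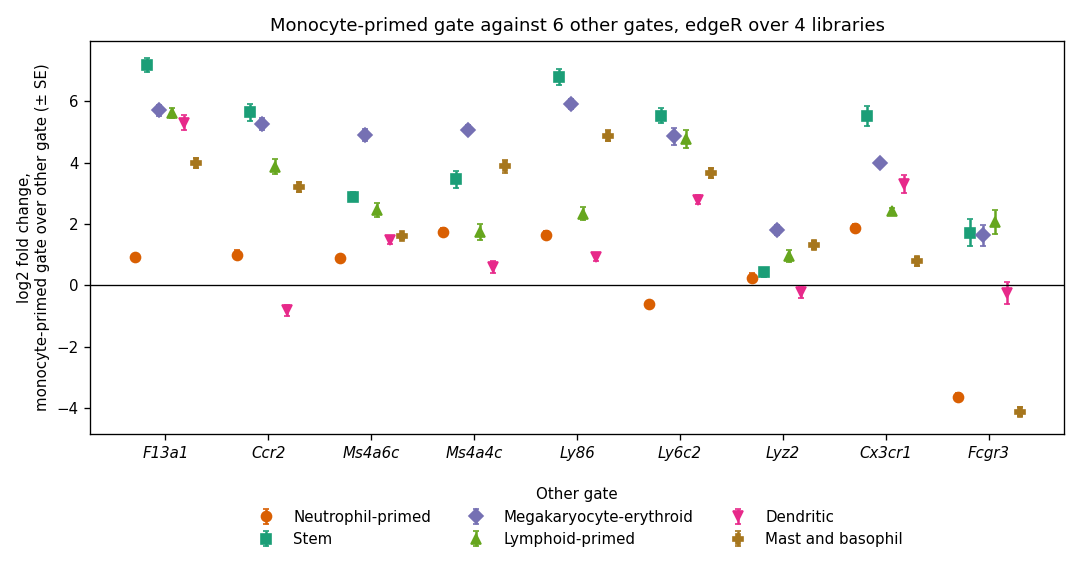
Log2 fold change of each gene, monocyte-primed gate over each of 6 other gates, in edgeR with library as a block, with bars of 1 SE. Fcgr3 is far below 0 against the neutrophil-primed gate (-3.63) and the mast and basophil gate (-4.13), Ly6c2 is slightly below 0 against the neutrophil-primed gate (-0.60), and the other points of F13a1, Ms4a6c, Ms4a4c, Ly86 and Cx3cr1 are above 0.

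Within the monocyte-primed gate no gene was called for treatment, neither among the 9 nor among 11035 genes tested (0%; 234 genes, 2.12%, at an unadjusted p of 0.05 in edgeR, and 3 in DESeq2). Ly6c2 was at 805 and 705 CPM in Yoda1 1 and Yoda1 2, against 557 and 382 CPM in Control 1 and Control 2. It was the only member in which both Yoda1 libraries were above both controls, as were 10.3% of genes tested (0.72 ± 0.22, edgeR adjusted p = 0.9999). In the same gate F13a1 was at 327 and 288 CPM in Yoda1 1 and Yoda1 2, against 394 and 209 CPM in Control 1 and Control 2, and Ly86 was at 207 and 204 CPM, against 155 and 239 CPM. The levels of F13a1 and Ly86 in monocyte-primed cells of Yoda1 2 lay within the range of the controls, while the gate itself held 65 cells in Yoda1 2. Ccr2 was at 93.4 and 164 CPM in Yoda1 1 and Yoda1 2, against 101 and 88.8 CPM in Control 1 and Control 2, and Ms4a6c was at 712 and 475 CPM, against 605 and 628 CPM. Lyz2, at 175 and 702 CPM in Yoda1 1 and Yoda1 2, against 221 and 240.1 CPM in Control 1 and Control 2, was called higher without Yoda1 1 (1.58 ± 0.19, edgeR adjusted p = 0.0222, with 0.107% of 11165 genes called higher).

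Neutrophil-primed cells showed more differences at an unadjusted p of 0.05, with 5 of 9 genes past it (2.69% of 13924 genes tested). Only 1 gene was called there at an adjusted p of 0.05 by edgeR (0.00718% of genes tested), and it was none of the 9. Ly6c2 was at 1114 and 935 CPM in Yoda1 1 and Yoda1 2, against 733 and 625 CPM in Control 1 and Control 2 (0.65 ± 0.16, edgeR adjusted p = 0.999). Ly86 was at 96.6 and 56.9 CPM in Yoda1 1 and Yoda1 2, against 41.1 and 50.3 CPM in Control 1 and Control 2 (0.83 ± 0.24). F13a1 was at 209.7 and 162 CPM in Yoda1 1 and Yoda1 2, against 149 and 89.9 CPM in Control 1 and Control 2 (0.70 ± 0.23). In these 3 genes both Yoda1 libraries lay above both controls, as 8.85% of genes tested in this gate did, and in none did both lie below, as 21.3% did. With no filter on low counts, edgeR called these 3 genes and Ms4a4c higher in this gate, where it called 0.283% of 23648 genes higher (Ly86 adjusted p = 0.00128, Ly6c2 0.0254, F13a1 0.0147 and Ms4a4c 3.44e-05), so that their call depends on the filter. In the filtered fit, 6 of the 9 genes were called higher without Yoda1 2 (0.758% of 14520 genes were), and F13a1 was called higher without Control 1 (1.09 ± 0.20, edgeR adjusted p = 0.0306, with 0.035% of genes called higher).

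The effect of treatment was not shown to differ between the monocyte-primed and neutrophil-primed gates. In the interaction test 0 of 11908 genes were called by edgeR (0%; 326 genes, 2.74%, at an unadjusted p of 0.05, and 0 in DESeq2). F13a1 had the smallest p of the 9, with a log2 difference of -0.61 ± 0.13 (monocyte-primed effect minus neutrophil-primed effect, edgeR adjusted p = 0.711). With no filter on low counts, edgeR called F13a1 and Ly86, with the smaller effect in the monocyte-primed gate, as it did 0.0411% of 24312 genes. Without Yoda1 2 it called F13a1, Ccr2, Ms4a6c, Ms4a4c and Ly86 in that direction, as it did 0.24% of 14154 genes. Without Yoda1 1 it called Lyz2 in the other direction (1.17 ± 0.14), as it did 0.263% of 12188 genes.

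In the other 5 gates edgeR called none of the genes tested among the 9 at an adjusted p of 0.05, where it called 0% of genes in the stem, megakaryocyte-erythroid and lymphoid-primed gates, 0.0501% in the dendritic gate and 0.011% in the mast and basophil gate. Leaving out a Yoda1 library changed this. Without Yoda1 1 edgeR called lower Ms4a6c and Ly6c2 in the stem gate (0.328% of genes called lower), Ms4a6c, Ms4a4c, Ly86 and Ly6c2 in the lymphoid-primed gate (0.569%), Ms4a4c in the dendritic gate (0.276%), and F13a1, Ms4a6c and Ly6c2 in the mast and basophil gate (0.423%). Without Yoda1 2 it called higher Ms4a6c and Ms4a4c in the stem gate (0.908% of genes called higher) and Ms4a4c in the lymphoid-primed gate (0.955%). No gene of the 9 had both Yoda1 libraries above both controls in these gates, as did 14.7% of genes tested in the stem, 11.5% in the megakaryocyte-erythroid, 10.7% in the lymphoid-primed, 19.1% in the dendritic and 14.9% in the mast and basophil gate. Fcgr3 was below both controls in both Yoda1 libraries in 3 of them, as it was over all cells. In the stem gate it was at 3.55 and 1.87 CPM in Yoda1 1 and Yoda1 2, against 8.47 and 9.16 CPM in Control 1 and Control 2, where 14.4% of genes tested were below. In the dendritic gate it was at 7.04 and 8.95 CPM in Yoda1 1 and Yoda1 2, against 16.3 and 18.7 CPM in Control 1 and Control 2, where 16.9% were below. In the megakaryocyte-erythroid gate it was at 2.07 and 0.752 CPM in Yoda1 1 and Yoda1 2, against 6.15 and 2.58 CPM in Control 1 and Control 2, where 16.8% were below. These results rest on low counts. In the order Yoda1 1, Yoda1 2, Control 1 and Control 2, the stem gate had 5, 12, 6 and 10 UMIs of Fcgr3. The dendritic gate had 3, 15, 33 and 30, and the megakaryocyte-erythroid gate had 30, 3, 129 and 32. With no filter on low counts edgeR called Fcgr3 lower in that gate (-1.43, adjusted p = 0.0364, with 0.148% of genes called lower). In the neutrophil-primed and the mast and basophil gates, which held most of its transcripts, the groups overlapped: neutrophil-primed cells had 83.3 and 150.2 CPM in Yoda1 1 and Yoda1 2, against 116 and 124 CPM in Control 1 and Control 2. Neutrophil-primed cells were 16.4% and 2.14% of cells in Yoda1 1 and Yoda1 2, against 19.9% and 15.8% in Control 1 and Control 2, and the part of this share in the level of Fcgr3 over all cells was not tested.

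In mast and basophil cells, 4 of the 8 genes tested had both Yoda1 libraries below both controls (16.2% of genes tested). F13a1 was at 10.6 and 2.27 CPM in Yoda1 1 and Yoda1 2, against 27.5 and 24.8 CPM in Control 1 and Control 2 (-1.97 ± 0.46, edgeR adjusted p = 0.937). With no filter on low counts F13a1 was called lower (-2.01, edgeR adjusted p = 0.00169, with 0.0843% of genes called lower), as it was without Yoda1 1 (-3.49, edgeR adjusted p = 0.000443). Ly86 was at 3.19 and 0 CPM in Yoda1 1 and Yoda1 2, against 7.61 and 11.3 CPM in Control 1 and Control 2. Ccr2 and Lyz2 were also lower in both Yoda1 libraries, at log2 fold changes of -0.67 ± 0.46 and -0.28 ± 0.18. In lymphoid-primed cells Ccr2 was at 5.75 and 4.81 CPM in Yoda1 1 and Yoda1 2, against 7.47 and 14.6 CPM in Control 1 and Control 2, below both controls as 17.5% of genes tested were. Ms4a4c in these cells was at 55.5 and 2.36 CPM in Yoda1 1 and Yoda1 2, against 21.5 and 12.2 CPM in Control 1 and Control 2, the same order as over all cells.

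Transcripts of the genes were found together in the same cells. In thinned cells with F13a1, Ly6c2 was found in 54.3 to 74.5% across the libraries, 2.90 to 17.3 times its share over all cells, with the highest ratio in Yoda1 2. Ccr2 was found in 19.7 to 30.8% of F13a1 cells, 4.20 to 17.2 times its share over all cells, and Ly86 in 23.1 to 34.8%, 3.60 to 12.9 times. Cx3cr1 and F13a1 shared cells 3.88 to 20.1 times as often as their shares would give if they were found independently of each other. The ratio of 20.1 was in Yoda1 2, where 49 thinned cells had a UMI of Cx3cr1. The ratios are largest where a gene is rare, as in Yoda1 2. Lyz2 stood outside this pattern, with ratios of 0.717 to 1.36 to every other gene. Fcgr3 was found with Ly6c2 2.26 to 9.91 times its share, and with Ms4a4c 0.714 to 2.65 times.

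Cells that carried at least 4 of the 8 genes other than Lyz2 made up 6.45% and 0.494% of cells in Yoda1 1 and Yoda1 2, against 4.61% and 2.75% in Control 1 and Control 2. In the monocyte-primed gate they were 30.8% and 18.5% of cells in Yoda1 1 and Yoda1 2, against 29.7% and 19.8% in Control 1 and Control 2. In the neutrophil-primed gate they were 24.1% and 12.6% of cells in Yoda1 1 and Yoda1 2, against 13.4% and 9.09% in Control 1 and Control 2. After thinning to 3000 UMIs, no stem gate cell carried 4 of them in any library, and no thinned cell carried all 9. Cells with UMIs of both Irf8 and Ly86 were 6.74% and 1.24% of cells in Yoda1 1 and Yoda1 2, against 4.77% and 5.64% in Control 1 and Control 2. In them Ly6c2 was at 1155 and 566 CPM in Yoda1 1 and Yoda1 2, against 708 and 576 CPM in Control 1 and Control 2.

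**Figure D5:**
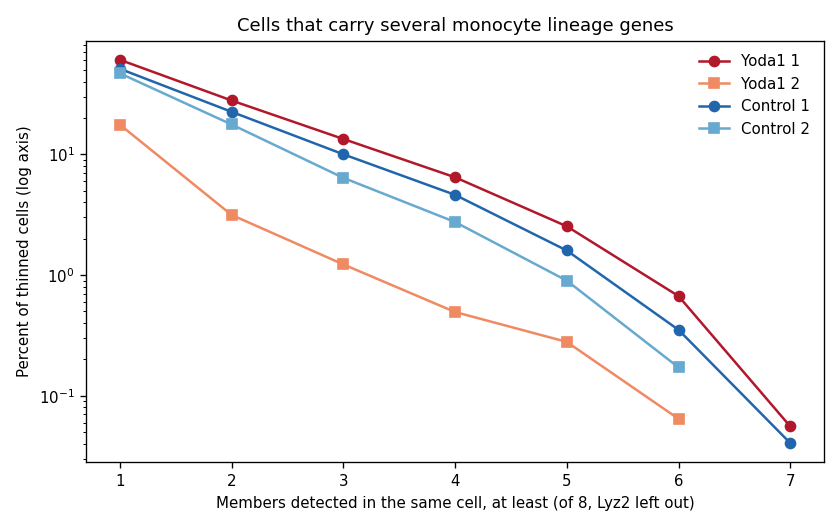
Percent of thinned cells (log axis) in which at least the given number of the 8 genes other than Lyz2 had a UMI, with 1 line per library. At 4 genes Yoda1 1 is highest at 6.45% and Yoda1 2 lowest at 0.494%, with the controls at 4.61% and 2.75%.

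By transcripts and not by cells, the neutrophil-primed gate held the largest part of several genes, and it also held more cells than the monocyte-primed gate in every library. The monocyte-primed gate held 10.0% of Ly6c2 UMIs on average over the libraries and 20.9% of F13a1 UMIs, against 76.4% and 56.0% in the neutrophil-primed gate. For Ly86 the monocyte-primed gate held 20.5% and the neutrophil-primed gate 33.1%, and for Ccr2 the dendritic gate held 17.3%, from 1.54% in Yoda1 1 to 33.9% in Yoda1 2. Cells in no gate held 51.7% of Lyz2 UMIs and 41.9% of Ms4a6c UMIs. In bulk sums over all kept cells, fewer cells of a class and less RNA per cell cannot be told apart.

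Over the 28 profiles of 7 gates in 4 libraries, on log2(CPM + 1), F13a1 and Ly6c2 were the most alike of the 9 genes (Pearson r = 0.93). Ms4a4c and Ly86 followed (r = 0.90), while Fcgr3 was near 0 with Ms4a4c (-0.00), Lyz2 (0.03) and Ly86 (0.07). With the other genes Fcgr3 ran from 0.32 (Ccr2) to 0.50 (Ms4a6c). Lyz2 with Cx3cr1 was also near 0 (-0.06). The profiles share libraries and gates, so the values describe the data and carry no p. Among 8483 other genes of at least 10 CPM on average, the mean profile of the 9 was most like Tifab (r = 0.95), Ctsz (0.93), Hexa (0.93), Erp29 (0.92) and Gpx1 (0.89). Ctsz and Hexa encode lysosomal enzymes. Ly86 was most like Ifi209 (0.97) and Irf8 (0.95), a gate gene, and Ms4a4c most like Ifi209 (0.93) and Ifi204 (0.90), both interferon-inducible. F13a1 was most like Mapkapk2 (0.91) and Csf1r (0.90), a gate gene. Ccr2 was most like Irf8 (0.93), also a gate gene, and Npc2 (0.92). Ms4a6c was most like Fndc3b (0.88) and Glipr1 (0.87), and Ly6c2 most like Gpx1 (0.91) and Tifab (0.90). Lyz2 was most like S100a6 (0.85) and S100a4 (0.84), Cx3cr1 was like Lgals1 (0.85), and Fcgr3 was most like 1700020L24Rik (0.94) and Hdc (0.92), the histidine decarboxylase of mast cells and a gate gene.

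A list of 28 other monocyte and macrophage genes gives the wider pathway. Of the 26 tested over all cells, none was called, 9 had higher and 17 lower estimates with Yoda1, and their median log2 fold change was -0.22. Chil3, a chitinase-like protein of macrophages and neutrophils, was at 0.181 and 0.431 CPM in Yoda1 1 and Yoda1 2, against 1.01 and 0.472 CPM in Control 1 and Control 2. Cd68, a lysosomal membrane glycoprotein of macrophages, was at 14.1 and 13.4 CPM in Yoda1 1 and Yoda1 2, against 16.9 and 18.4 CPM in Control 1 and Control 2. Ccl9, a chemokine, was at 116 and 57.3 CPM in Yoda1 1 and Yoda1 2, against 126 and 142 CPM in Control 1 and Control 2, and Adgre1, which encodes F4/80, at 0.751 and 0.938 CPM, against 1.50 and 1.13 CPM. These 4 had the smallest p among the lower estimates. Chil3, with 20 to 104 UMIs per library, and Adgre1, with 83 to 155, had low counts. In these 4 both Yoda1 libraries were below both controls, as in 8 of the 26, against 9.95% of all genes tested. The 4 with the smallest p among the higher estimates were S100a4, Fcgr1, Ms4a6b and Ctss, and in all of them the groups overlapped. Ctss, which encodes cathepsin S, was at 40.8 and 30.7 CPM in Yoda1 1 and Yoda1 2, against 29.9 and 34.3 CPM in Control 1 and Control 2. Ace was at 0 UMIs in all libraries and Cd300e at 0 UMIs with Yoda1 and 3 to 4 UMIs in the controls, and these 2 were not tested.

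Near copies of the genes bear on their counts, since reads of similar sequence can be split or dropped. Ly6c1, next of kin to Ly6c2, was at 1.10 and 0.673 CPM in Yoda1 1 and Yoda1 2, against 0.379 and 0.359 CPM in Control 1 and Control 2, and Lyz1 at 0.0453 and 0.199 CPM, against 0.126 and 0.281 CPM. How reads shared between copies were counted is not given in the sources used here, so the level of Ly6c2 against Ly6c1 and of Lyz2 against Lyz1 is uncertain. Of the Ms4a copies, Ms4a6b was at 107 and 38.2 CPM in Yoda1 1 and Yoda1 2, against 54.0 and 63.0 CPM in Control 1 and Control 2, and Ms4a4b at 29.1 and 6.79 CPM, against 12.6 and 15.6 CPM. Both had Yoda1 1 above and Yoda1 2 below both controls, as Ms4a6c and Ms4a4c did. Fcgr2b, the inhibitory Fc receptor, was at 17.7 and 9.80 CPM in Yoda1 1 and Yoda1 2, against 20.7 and 25.1 CPM in Control 1 and Control 2, below both controls as Fcgr3 was. Fcer1g, the signalling chain that Fcgr3 pairs with, was at 226 and 139 CPM in Yoda1 1 and Yoda1 2, against 198 and 233 CPM in Control 1 and Control 2, with overlap. Fcgr4 (1.09 and 0.298 CPM with Yoda1 1 and 2, against 0.922 and 0.853 CPM in the controls) and Ms4a6d (2.09 and 0.696, against 1.13 and 1.13) were rare.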

How the data were processed

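Single-cell RNA-seq was measured in 4 libraries, 2 per group, grouped by the treatment label. The authors deposited unnormalized counts of UMIs per gene and barcode, written by Cell Ranger 7.1.0 per the file headers; per the submitters' processing notes, Seurat 4.3.0 was used and the build was GRCm38 (mm10). Capture is uncertain: the labels mention 10x Genomics and also a microwell chip from a different company. The sources used here do not give how intronic reads and strand were handled. GENCODE M21 supplied positions.

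Cells of at least 500 genes, 1000 UMIs and at most 10% UMIs of mt- genes were kept, and counts were summed per library, or per library and gate, and divided by their total to give CPM. For gates and shares, cells were thinned to 3000 UMIs (seeded). A gate needed at least 2 of its markers and 3 (monocyte-primed), 20 (neutrophil-primed), 4 (stem), 8 (megakaryocyte-erythroid), 5 (lymphoid-primed), 5 (dendritic) or 8 (mast and basophil) UMIs of them. A cell meeting several gates went to the largest multiple of the threshold, and ties were left out. Thresholds and this rule were set after the distributions were seen, so that each gate held at least 50 cells per library. A B-lineage gate had 0 cells in Yoda1 1 and was not tested, and T and NK markers were not gated. No doublet caller was run; leaving out cells of several gates or the 5% of cells with most UMIs were alternatives. Megakaryocyte-erythroid cells served as a rough measure of free RNA, from which their own transcripts cannot be told apart.

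Sums were tested with edgeR 4.0.16 (quasi-likelihood, TMM factors, filterByExpr, R 4.3.3) with Benjamini-Hochberg adjustment over all genes tested; DESeq2 1.42.0, RLE factors, no filter on low counts, a cell filter of at least 1000 genes and at most 5%, a replicate block, gate thresholds 1 UMI higher and leaving out each library were alternatives. Log2 fold changes are given with the standard error of the test. Shares were compared with an exact permutation test (scipy 1.17.1) and have Clopper-Pearson 95% intervals. The edgeR fit was tested on simulated data. Beside the 9 members, the genes named were the 4 with the smallest p in each direction of the list of other monocyte genes. The near copies of the members and the genes with the most similar gate profiles were also named. Ifit3, Iigp1, Ly6a and Kit were added. Some genes that this rule names are not reported here. The members, lists and tests were chosen with earlier results of these data known.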

Additional observations from a re-analysis of the deposited data

Results flagged for a closer look

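F13a1 and Ly86 lay above the controls in both Yoda1 libraries in 1 cell class and below them in both in another, and the difference between the classes was not tested. F13a1 was above both controls in both Yoda1 libraries of the neutrophil-primed gate (log2 fold change 0.70) and below both in the mast and basophil gate (-1.97), a difference of 2.67. Ly86 was above both controls in the neutrophil-primed gate (0.83) and below both in the mast and basophil gate (-2.48), a difference of 3.31. With all libraries, the filter on low counts and no replicate block, edgeR called none of these 4 changes. A replicate block called F13a1 in the mast and basophil gate. With no filter edgeR called F13a1 in both gates and Ly86 in the neutrophil-primed gate. In the mast and basophil gate the counts were low. Ly86 had 3 and 0 UMIs in Yoda1 1 and Yoda1 2, against 13 and 22 in Control 1 and Control 2. F13a1 and Ly86 were picked from these data, after the 9 genes had been compared across the gates. Of all genes tested in the neutrophil-primed gate, 8.85% were higher with Yoda1 without overlap of the groups. In the mast and basophil gate 16.2% were lower without overlap. The share of genes with both patterns was not counted. No group of 4 or more libraries existed in which a single library could be examined as an outlier. In barcodes outside the cell filter, no gene of the 9 was above both controls in both Yoda1 libraries.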

How the results depend on the processing

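Leaving out a library changed most treatment results, and the cause was not tested. Over all kept cells edgeR called 0 to 938 genes across the 4 libraries left out in turn, against 0 with all, and DESeq2 called 5. The log2 fold changes then ran from -2.46 to 0.71 for F13a1, -1.38 to 0.46 for Ccr2, -1.97 to 0.79 for Ms4a6c, -2.40 to 1.64 for Ms4a4c, -1.89 to 0.70 for Ly86, -2.17 to 0.85 for Ly6c2, -2.07 to 0.45 for Cx3cr1 and -1.98 to -0.52 for Fcgr3. Differences in positive share, in percentage points, ran from -6.01 to 2.71 for F13a1, -2.72 to 1.56 for Ccr2, -20.0 to 13.2 for Ms4a6c, -2.30 to 5.59 for Ms4a4c, -5.35 to 2.53 for Ly86, -15.5 to 6.16 for Ly6c2 and -1.45 to 0.183 for Cx3cr1, and the monocyte-primed share from -3.17 to 0.867. Genes called for treatment in a gate ran from 0 to 16 (monocyte-primed), 14 to 156 (neutrophil-primed), 0 to 102 (stem), 0 to 4 (megakaryocyte-erythroid), 0 to 178 (lymphoid-primed), 33 to 159 (dendritic) and 1 to 96 (mast and basophil). In the monocyte-primed gate log2 fold changes ran from -0.32 to 0.59 for F13a1, -0.40 to 0.29 for Ms4a6c, -0.37 to 0.80 for Ms4a4c, -0.19 to 0.45 for Ly86, -0.32 to 1.58 for Lyz2, -0.62 to 0.11 for Cx3cr1 and -0.64 to 1.39 for Fcgr3, and in the neutrophil-primed gate from -0.34 to 0.87 for Ms4a6c, -0.26 to 1.61 for Ms4a4c, -0.082 to 0.79 for Cx3cr1 and -0.45 to 0.35 for Fcgr3. Between gates, Lyz2 ran from -0.038 to 0.43 (against neutrophil-primed) and -0.52 to 0.081 (against dendritic), and Fcgr3 from -0.74 to 0.17 (against dendritic), where 1584 to 2487 genes were called in either direction and 0 to 2 of the 9 were called lower. The interaction ran from 1 to 46 genes called, from -0.88 to 0.66 for Ccr2, -0.076 to 0.27 for Ly6c2, -0.30 to 1.17 for Lyz2 and -0.18 to 0.99 for Fcgr3. DESeq2 called 3, 9, 1, 3, 3 and 12 genes in the monocyte-primed, neutrophil-primed, stem, megakaryocyte-erythroid, lymphoid-primed and dendritic gates, and 2347 against the mast and basophil gate. With no filter on low counts edgeR called 48, 93, 30, 58, 71 and 193 in the same gates, 35 in the mast and basophil gate and 14 for the interaction. Gate thresholds 1 UMI higher gave 0 (neutrophil-primed), 2 (dendritic) and 0 (mast and basophil), with under 50 cells in a gate of some libraries, and the stricter cell filter 2 (dendritic). Ms4a6c in the monocyte-primed gate was 0.0028 with RLE factors, 0.0017 with DESeq2 and 0.091 with the higher thresholds, Fcgr3 in the neutrophil-primed gate 0.0017 with DESeq2, and Ly6c2 over all cells -0.088 without cells meeting several gates and -0.11 without the cells with most UMIs. A replicate block called 0 genes over all cells, with Ms4a4c at -0.29 and Ly6c2 at -0.63, and 3, 15, 14, 7, 3 and 63 genes in the monocyte-primed, neutrophil-primed, megakaryocyte-erythroid, lymphoid-primed, dendritic, and mast and basophil gates, with F13a1 called lower in the last (adjusted p = 0.000734, as 0.34% of genes were); same-numbered libraries differed alike (r = 0.49 over 18182 genes), but with 2 pairs this cannot show pairing. With 2 libraries a group no permutation p can pass 0.05, and 65 monocyte-primed cells in Yoda1 2 limit its gate values.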
